A study of Brassica napus with 12 samples.

Results

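The 60 coding sequences described here were higher in submerged than in air-grown leaves of one oilseed rape cultivar and lower in the other. They were chosen from 101040 coding sequences (targets) of Brassica napus by their TPM, a length-scaled abundance with the same total in each library. Every submerged Avatar library had to lie above every Avatar air library, and every submerged Zhongshuang 9 library below every Zhongshuang 9 air library. Of all targets, 436 (0.432%) met this condition, and 168 (0.166%) met the reverse, lower in Avatar and higher in Zhongshuang 9. The members are the 60 of the 436 with the largest smaller change, where the change is the difference in mean log2(TPM + 1) between submergence and air. All 12 libraries entered this choice, so the members' responses to submergence are descriptions. Fits of these responses are quoted below only as counts and medians that support nothing.

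First true leaves of 16-day-old seedlings of both cultivars were sampled after 24 h, 3 libraries for each cultivar and treatment. Submerged plants were fully under tap water from day 15, beginning 2 h into an 8 h light period, and control plants stood in like boxes without water. The labels give no transgene or mutant, and all groups shared the growth conditions. The labels number the replicates 1, 3 and 4 in each group and do not say how many plants a library holds, so the spread between libraries may be partly technical.

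Submergence slows the exchange of gases between a leaf and its surroundings. Oxygen and carbon dioxide become scarce, and ethylene, a gaseous plant hormone, accumulates. Leaves of many plants respond with wide changes in gene expression, among them a switch to fermentation and a lowering of growth and photosynthesis. Brassica napus carries an A and a C subgenome, so many genes exist as closely related copies. An identifier such as BnaC04g18290D names the subgenome and chromosome (C04) and a gene number along it, and nn stands where no chromosome is given. Of the 101040 identifiers, 3347 (3.31%) were found in RefSeq's genes for the assembly named Da-Ae. Only 3 of the 60 members matched, none with a functional name, so members are given by identifier and no role is stated.

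Libraries held between 24389689 and 35873030 estimated counts. Zhongshuang 9 submergence replicate 1 stood apart from its group: the chi-square per target against replicates 3 and 4 was 79.7 and 70.4, against 4.79 between those 2 libraries. For Avatar submergence replicate 1 the values were 41.15 and 46.94, against 21.95 between replicates 3 and 4. Pairs of air libraries were at 29.45 to 41.26 in Avatar and at 12.02 to 14.28 in Zhongshuang 9. In 5 libraries long stretches of neighbouring genes were shifted together. These were Avatar air replicates 3 and 4, Avatar submergence replicate 1, Zhongshuang 9 air replicate 4 and Zhongshuang 9 submergence replicate 1. For the members inside such stretches, changes are given with and without these libraries. All 5 were left out together, including those not shifted at the gene in question.

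Mean TPM in submerged Avatar leaves was 1.54 to 15.0 times that in air, with a median of 2.33. The 15.0 belongs to BnaC03g47350D and rests on Avatar submergence replicate 1, without which it is 3.91, and the next member was at 5.39. In Zhongshuang 9 the mean in air was 1.55 to 12.99 times that under submergence, with a median of 2.69. The 12.99 belongs to BnaA03g48500D, which had 1 estimated count in 1 submerged library and 0 in the others, and the next member was at 10.3. On the log2(TPM + 1) scale Zhongshuang 9 showed the larger of the 2 changes in 35 members and Avatar in 25. This split depends on the scale. Median changes were 0.88 in Avatar and -0.95 in Zhongshuang 9 on that scale, and 0.61 and -0.93 on log2(CPM + 1) with TMM factors. The mean TPM of the highest group had a median of 9.60, and 18 members (30%) had group means below 5 TPM throughout. Over the 55674 targets with enough counts to be tested by edgeR, the same median was 4.46, and 52.9% were below 5 TPM. Adding 1 to the TPM shrinks changes at low levels, so the choice itself disfavours low targets. The higher level of the members is therefore no separate result. The median estimated count per library was 87.3 for the median member and 3.87 for the lowest, and 12 members had no count in at least 1 library. The 60 members summed to 299 to 354 TPM in Avatar air, 739 to 750 TPM in submerged Avatar, 487 to 543 TPM in Zhongshuang 9 air and 174 to 247 TPM in submerged Zhongshuang 9. The lowest of the last 3 libraries was replicate 1, which was the lowest of its group in 38 of 60 members. In Avatar air, replicate 3 was the lowest in 33.

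**Figure D1:**
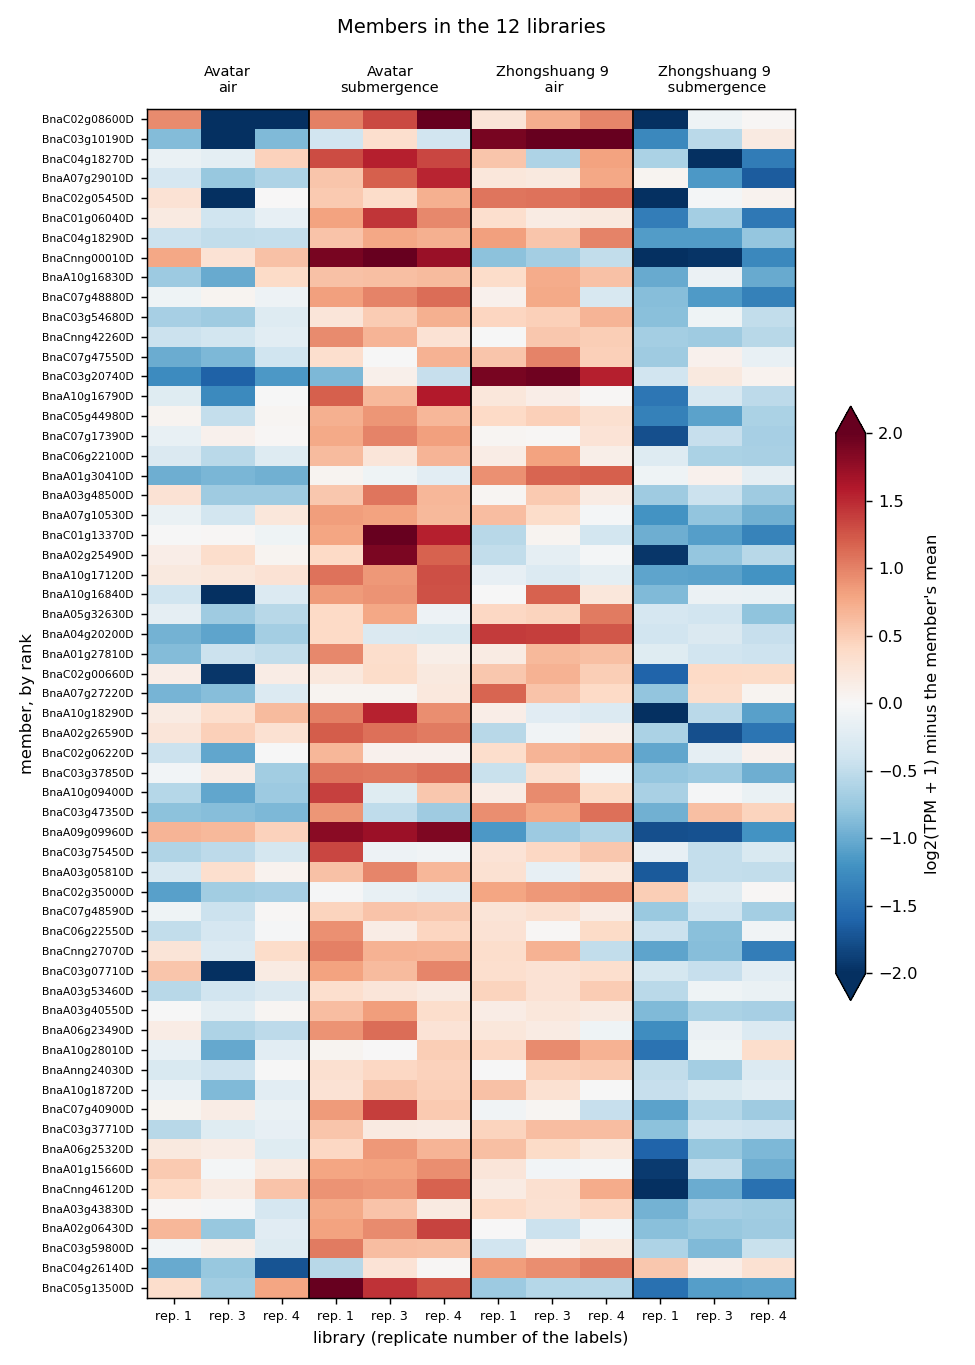
Colour gives log2(TPM + 1) of each member (rows, by rank) in each library (columns) minus that member's mean over the 12 libraries, with colours capped at 2 in either direction. In every row submerged Avatar lies above Avatar air and submerged Zhongshuang 9 below Zhongshuang 9 air, as the choice requires, and many of the darkest blue cells are in Avatar air replicate 3 or Zhongshuang 9 submergence replicate 1.

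At the edge of the choice the values ran on without a gap. The smaller change was 0.61, 0.60 and 0.60 on the log2(TPM + 1) scale for the last members, BnaC03g59800D, BnaC04g26140D and BnaC05g13500D. It was 0.60, 0.60 and 0.59 for the first targets left out, BnaC03g63890D, BnaA05g00520D and BnaA10g16360D. Among the 60 members it reached 1.52, with a median of 0.79. The 60 targets with the largest reverse pattern had a median of 0.59 and a lowest value of 0.39. Over all tested targets the median change was 0.21 in Avatar and 0.12 in Zhongshuang 9 on this scale.

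**Figure D2:**
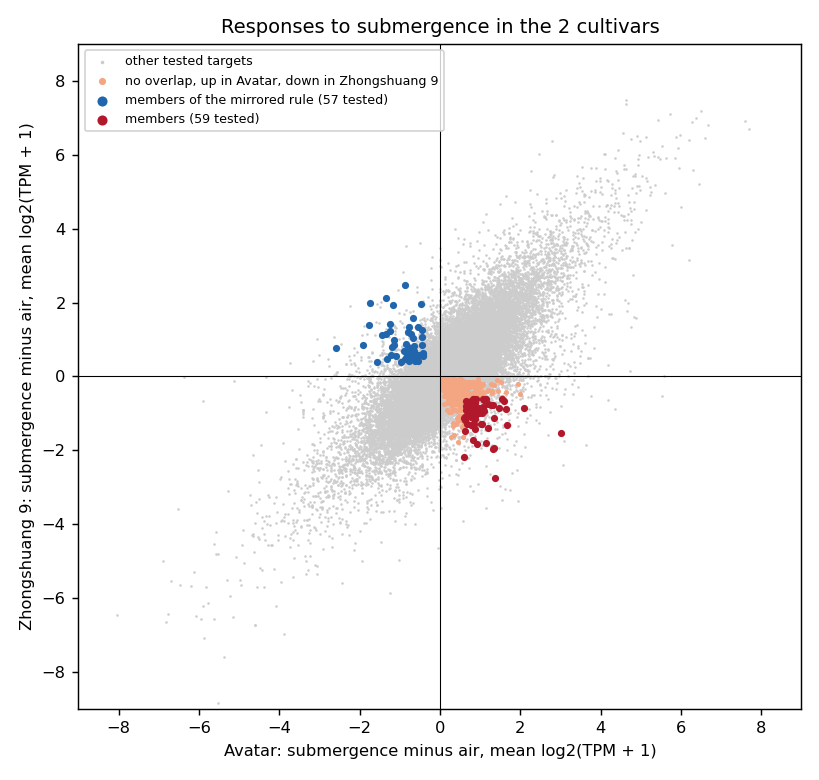
Each point is a target tested by edgeR, placed by its change from air to submergence in mean log2(TPM + 1) in Avatar (horizontal) and in Zhongshuang 9 (vertical). The 59 tested members (red) lie at the lower right, with Avatar changes of 0.61 to 3.01 and Zhongshuang 9 changes of -2.75 to -0.60, while most targets lie along the rising diagonal.

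Among the 10 members with the largest smaller change, libraries of a group were close together in some genes and far apart in others. In what follows, TPM values are given in the order of replicates 1, 3 and 4. BnaC04g18290D stood at 3.13, 2.94 and 2.97 TPM in Avatar air, 7.22, 8.44 and 8.097 in submerged Avatar, 8.77, 7.19 and 10.04 in Zhongshuang 9 air, and 1.54, 1.55 and 2.24 in submerged Zhongshuang 9. Submerged Avatar and air-grown Zhongshuang 9 leaves overlapped, and the other groups lay well below them. On the log2(TPM + 1) scale its change was 1.15 in Avatar and -1.80 in Zhongshuang 9. BnaC01g06040D stood at 5.06, 3.08 and 3.81 TPM in Avatar air, 8.397, 13.5 and 9.45 in submerged Avatar, 5.8, 5.01 and 5.16 in Zhongshuang 9 air, and 1.06, 2.35 and 0.995 in submerged Zhongshuang 9. Here the cultivars overlapped in air and separated under water. BnaA07g29010D had 3.45, 2.32 and 2.65 TPM in Avatar air, 7.23, 11.9 and 15.2 in submerged Avatar, 5.56, 5.45 and 8.59 in Zhongshuang 9 air, and 4.83, 1.54 and 0.779 in submerged Zhongshuang 9. Submerged Zhongshuang 9 replicate 1 lay just below the lowest air library of that cultivar, and the other submerged libraries lay far below it.

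Some of the highest-ranked members were close to the limit of detection. BnaA10g16830D had 0 to 13 estimated counts per library, and its values were 0.215, 0 and 1.63 TPM in Avatar air, 2.04, 2.05 and 2.11 in submerged Avatar, 1.598, 2.38 and 2.02 in Zhongshuang 9 air, and 0, 0.852 and 0 in submerged Zhongshuang 9. BnaC07g48880D had 1.397, 1.66 and 1.39 TPM in Avatar air, 3.53, 4.07 and 4.54 in submerged Avatar, 1.697, 3.33 and 1.05 in Zhongshuang 9 air, and 0.422, 0.166 and 0 in submerged Zhongshuang 9. A single library of submerged Zhongshuang 9 held no count of this gene, and its 12 libraries ranged up to 30.6 counts. BnaC04g18270D, with a coding length of 168 bases the shortest member, stood at 10.2, 9.84 and 16.03 TPM in Avatar air, 29.8, 35.2 and 30.5 in submerged Avatar, 17.2, 7.06 and 20.7 in Zhongshuang 9 air, and 6.98, 0.518 and 3.69 in submerged Zhongshuang 9. Zhongshuang 9 air replicate 3 (7.06 TPM) lay hardly above submergence replicate 1 (6.98 TPM). BnaA03g48500D was the only member with too few counts to be tested by edgeR. It was at 0 in 4 of the 12 libraries and reached 2.45 TPM at most.

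The members with the highest levels were also given by library. BnaA09g09960D, which reached the highest level of all members, stood at 41.4, 40.6 and 35.7 TPM in Avatar air, 92.2, 86.2 and 96.1 in submerged Avatar, 10.95, 15.1 and 16.5 in Zhongshuang 9 air, and 6.86, 6.98 and 10.7 in submerged Zhongshuang 9. Both Avatar groups lay above both Zhongshuang 9 groups. BnaCnng46120D had 31.4, 26.5 and 35.5 TPM in Avatar air, 44.98, 44 and 54.9 in submerged Avatar, 26.8, 29.7 and 40.2 in Zhongshuang 9 air, and 2.53, 11.4 and 7.803 in submerged Zhongshuang 9. Its lowest value came from Zhongshuang 9 submergence replicate 1, and both others of that group were also below every other library. BnaC07g17390D, with 456 to 3364 estimated counts per library, stood at 20.3, 24.2 and 23.2 TPM in Avatar air, 39.3, 46.1 and 41.1 in submerged Avatar, 23.4, 23.2 and 27.7 in Zhongshuang 9 air, and 6.001, 16.2 and 14.01 in submerged Zhongshuang 9. BnaC01g13370D had 11.7, 12.04 and 11.1 TPM in Avatar air, 21.1, 50.9 and 36.7 in submerged Avatar, 7.799, 12.4 and 8.99 in Zhongshuang 9 air, and 5.53, 4.99 and 4.12 in submerged Zhongshuang 9. Air-grown leaves of the cultivars overlapped in both genes, and submerged leaves did not. For BnaC07g47550D the values were 9.16, 9.85 and 14.4 TPM in Avatar air, 24.7, 19.2 and 31.9 in submerged Avatar, 28.8, 39.04 and 27.1 in Zhongshuang 9 air, and 11.4, 20.5 and 17.2 in submerged Zhongshuang 9. In this gene it was the air-grown leaves that differed without overlap, whereas the submerged groups overlapped.

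The cultivars met in 4 arrangements. In 20 members Zhongshuang 9 was above Avatar in air and below it under submergence, without overlap either time. This held for 1.49% of all tested targets. In 21 members the cultivars overlapped in air and Zhongshuang 9 was lower under submergence, against 9.75% of tested targets. Zhongshuang 9 was higher in air and overlapped with Avatar under submergence in 13 members, against 13.9% of tested targets. It was lower in both treatments in 6, against 10.1%, and higher in both in none, against 8.2%. Taken by treatment, Zhongshuang 9 was above Avatar without overlap in air in 33 members and below in 6, against 23.6% and 18.3% of all tested targets. Under submergence it was below in 47 and above in 0, against 21.4% and 17.4%. The choice itself requires the cultivar difference to shift from air to submergence, so these counts are no separate result. Submerged Avatar was the highest of the 4 group means in 42 members and Zhongshuang 9 air in 18. The lowest was submerged Zhongshuang 9 in 41 and Avatar air in 19.

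In the edgeR fit over all 55674 tested targets, all 59 tested members had the direction of the choice in both cultivars. The rise in Avatar passed an adjusted p of 0.05 in 19 members, where 21.6% of all tested targets rose. The fall in Zhongshuang 9 passed in 43, where 22% of all tested targets fell, and 16 members passed in both, against 0.135% of all tested targets. The difference between the responses passed in 26 of 59 members, against 0.808% of all tested targets with a lower response in Zhongshuang 9. The members were picked for this difference in these libraries, so nothing is read from these counts.

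The average of air and submergence in Zhongshuang 9 against the same average in Avatar is a comparison that the choice did not fix. Of the 59 tested members, 33 differed between the cultivars on this average, 7 higher and 26 lower in Zhongshuang 9 (edgeR quasi-likelihood test, Benjamini-Hochberg adjusted p under 0.05). Over all tested targets 31.5% differed, 13.9% higher and 17.7% lower. The median log2 fold change was -0.59 over the members and 0.02 over all tested targets. Calls ran from -3.06 to -0.68 among the lower members and from 1.15 to 2.74 among the higher ones. Separation of all replicates was a condition of the choice and may favour genes with little spread, which was not tested. The same libraries enter both comparisons. The higher share called and its lean to lower calls are therefore descriptions. Without Zhongshuang 9 submergence replicate 1, 10 members were called higher and 26 lower. Without all 5 libraries with shifted stretches, 9 were higher and 27 lower.

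Among the members lower in Zhongshuang 9 on average, the 3 with the smallest p are given here. BnaCnng00010D stood at 10.4, 7.14 and 8.996 TPM in Avatar air, 23.6, 26.9 and 21.05 in submerged Avatar, 2.74, 3.12 and 3.73 in Zhongshuang 9 air, and 0.504, 0.711 and 1.72 in submerged Zhongshuang 9. Its log2 fold change between cultivars was -3.06 ± 0.27 (SE, edgeR adjusted p = 1.33e-05), and every Zhongshuang 9 library lay below every Avatar library. BnaA09g09960D, whose values are given above, had -2.49 ± 0.16 (SE, edgeR adjusted p = 1.22e-06), also with every Zhongshuang 9 library below every Avatar library. BnaA10g17120D stood at 2.57, 2.64 and 2.82 TPM in Avatar air, 5.604, 4.72 and 6.595 in submerged Avatar, 1.797, 1.57 and 1.72 in Zhongshuang 9 air, and 0.5097, 0.494 and 0.357 in submerged Zhongshuang 9. Its groups did not overlap, and the log2 fold change was -2.16 ± 0.15 (SE, edgeR adjusted p = 1.74e-06). Across the alternative settings their largest adjusted p were 0.000119, 4.11e-05 and 0.000269.

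Of the members higher in Zhongshuang 9 on average, BnaA01g30410D stood at 0.754, 0.835 and 0.761 TPM in Avatar air, 2.58, 2.24 and 1.98 in submerged Avatar, 5.46, 6.74 and 6.9 in Zhongshuang 9 air, and 2.26, 2.64 and 2.05 in submerged Zhongshuang 9. Submerged leaves of the cultivars overlapped, and every air-grown Zhongshuang 9 library lay above every Avatar library. The log2 fold change of the average was 1.53 ± 0.11 (SE, edgeR adjusted p = 2.45e-06). BnaC03g20740D had 1.16, 0.696 and 1.36 TPM in Avatar air, 1.79, 4.56 and 2.77 in submerged Avatar, 18.4, 19.1 and 14.3 in Zhongshuang 9 air, and 3, 4.96 and 4.44 in submerged Zhongshuang 9. Air-grown Zhongshuang 9 was far above the other groups, and the log2 fold change was 2.18 ± 0.28 (SE, edgeR adjusted p = 0.000192). BnaC02g35000D stood at 1.66, 2.504 and 2.57 TPM in Avatar air, 4.58, 4.12 and 3.88 in submerged Avatar, 8.73, 9.301 and 9.54 in Zhongshuang 9 air, and 6.99, 3.71 and 4.77 in submerged Zhongshuang 9. Submerged leaves overlapped and air-grown leaves did not, and the log2 fold change was 1.15 ± 0.16 (SE, edgeR adjusted p = 0.000333). Largest adjusted p over the alternatives were 0.000402, 0.000914 and 0.00232 for these genes.

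**Figure D3:**
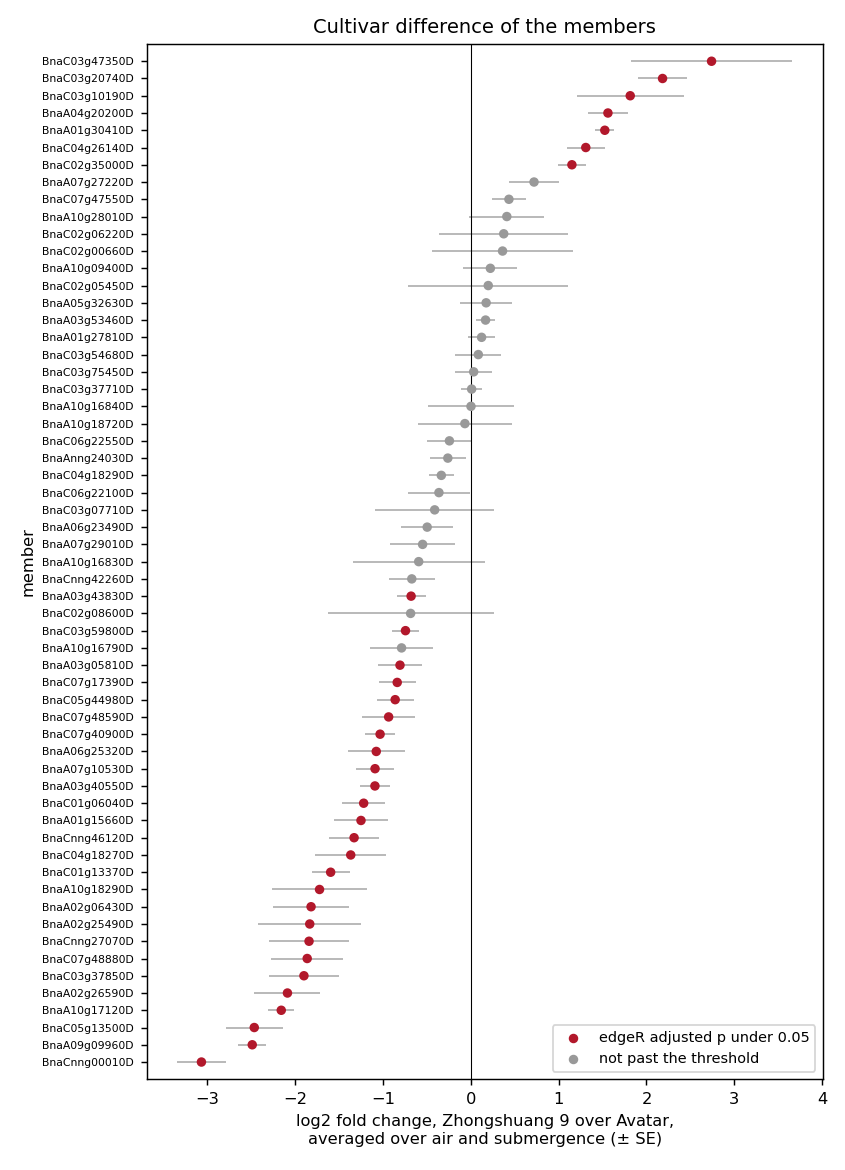
Points give each tested member's edgeR log2 fold change of Zhongshuang 9 over Avatar, averaged over air and submergence, with bars of ± 1 SE. The SE was derived from the test statistic. Most points lie left of 0, with 26 members lower and 7 higher past the threshold (red) and 26 not past it (grey).

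Because every library was used in the choice, the pattern was also looked at in libraries that a choice had not used. In turn, the libraries with replicate number 1, 3 or 4 were left out, 60 targets were chosen by the same condition from the others, and their direction was read in the libraries left out. Of the 60 targets, 18 (30%), 33 (55%) and 36 (60%) were higher in the submerged Avatar and lower in the submerged Zhongshuang 9 library left out, for replicate 1, 3 and 4. Among all tested targets 18.5%, 12.6% and 10.8% showed this pattern in the same libraries. The fall in Zhongshuang 9 was seen in 55, 47 and 48 of the 60, and the rise in Avatar in 20, 41 and 45. Median changes were smaller in the libraries left out than in those used for the choice, and with replicate 1 left out the median in Avatar was -0.65, opposite to the choice. With replicate 3 left out, the median in Avatar was 0.95 in the choosing libraries and 0.65 in those left out, and in Zhongshuang 9 it was -1.03 and -0.47. When replicate 1 was left out, 40 of the 60 chosen targets lay inside shifted stretches, against 6 and 11 with replicates 3 and 4 left out. Restricted to targets outside the stretches, the pattern was seen in 34 (56.7%), 31 (51.7%) and 40 (66.7%) of 60. The shares of tested targets outside the stretches were 18.6%, 12% and 10.8%. In these restricted lists the fall in Zhongshuang 9 was seen in 49, 45 and 48 targets, and the rise in Avatar in 42, 40 and 49. With replicate 1 left out, their median change was 0.61 in Avatar and -0.83 in Zhongshuang 9. The stretches were marked from all 12 libraries and the restriction was chosen after seeing the data. These restricted counts and medians are therefore not free of the libraries left out. The restricted lists share 27, 24 and 34 targets with the 60 members, and the unrestricted ones 13, 24 and 32.

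**Figure D4:**
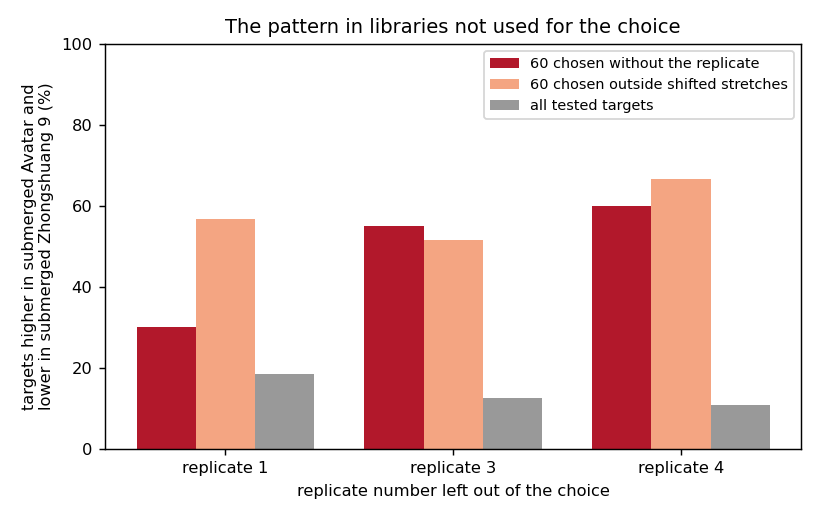
Bars give the percentage of targets higher in the submerged than in the air library of Avatar and lower in that of Zhongshuang 9, read in the libraries of the replicate number left out of the choice. Targets chosen without that replicate (red) reached 30% to 60%, those chosen outside shifted stretches (orange) 51.7% to 66.7%, and all tested targets (grey) 10.8% to 18.5%. The stretches were marked from all 12 libraries, so the orange bars are not free of the libraries left out.

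Inside shifted stretches lay 7 members, 11.7% of the 60 members against 11.6% of all tested targets, and they included 3 of the 5 highest ranks. BnaC02g08600D, ranked first, stood at 12.3, 0.2102 and 0.136 TPM in Avatar air, 12.9, 16.3 and 38.5 in submerged Avatar, 7.25, 10.4 and 12.6 in Zhongshuang 9 air, and 0.174, 5.54 and 6.06 in submerged Zhongshuang 9. Avatar air replicate 1, at 12.3 TPM, was hardly below the lowest submerged library. In Avatar air replicate 3 and Zhongshuang 9 submergence replicate 1 the genes around it were shifted by -6.0 and -6.03 (median log2). Its own change was 3.01 in Avatar and -1.52 in Zhongshuang 9, and 0.98 and -0.52 without the 5 libraries with shifted stretches, which leaves 1 Avatar air library. Avatar air replicate 4, at 0.136 TPM, is among those left out although C02 was not shifted in it, so these values do not isolate the stretch.

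In BnaC02g05450D, in the same stretch of C02, the values were 6.56, 0 and 5.17 TPM in Avatar air, 7.904, 6.98 and 9.08 in submerged Avatar, 11.9, 12.1 and 12.7 in Zhongshuang 9 air, and 0, 4.97 and 5.47 in submerged Zhongshuang 9. Without the 5 libraries the Avatar change went from 1.31 to 0.25, and that of Zhongshuang 9 from -1.97 to -1.07. BnaC02g00660D went from 0.81 to 0.14 and from -0.85 to -0.23. BnaC02g06220D, also on C02, went from 0.77 to 0.52 and from -0.96 to -0.56. The expressed neighbours of these C02 members, 20 on each side, had median changes of 0.73 to 1.34 in Avatar and -0.77 to -0.44 in Zhongshuang 9. These are the members' own directions.

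On C03, BnaC03g07710D had 11.2, 0 and 8.33 TPM in Avatar air, 13.5, 11.9 and 15.5 in submerged Avatar, 9.59, 9.16 and 9.56 in Zhongshuang 9 air, and 5.53, 5.05 and 6.23 in submerged Zhongshuang 9. The Avatar change was 1.59 with all libraries and 0.25 without the 5, while that of Zhongshuang 9 was -0.66 and -0.65. BnaC03g10190D stood at 2.75, 0 and 2.704 TPM in Avatar air, 4.26, 7.63 and 4.23 in submerged Avatar, 24.4, 43.1 and 26.6 in Zhongshuang 9 air, and 1.799, 3.67 and 6.69 in submerged Zhongshuang 9. It kept -2.48 in Zhongshuang 9 and 0.84 in Avatar without the 5 libraries, against -2.75 and 1.37 with them. Neighbours of both C03 genes had a median change of 1.18 and 1.19 in Avatar and of 0.22 and 0.21 in Zhongshuang 9. BnaA03g05810D lay in a stretch raised in Avatar air replicate 3, and its changes were 0.71 and -0.99 with all libraries and 1.14 and -0.55 without the 5. No Zhongshuang 9 library was shifted at this gene, so the value in that cultivar moved with libraries left out for shifts elsewhere.

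Outside the stretches, 48 members had neighbours on a chromosome. Their neighbours' median changes had a median of 0.31 in Avatar and 0.19 in Zhongshuang 9. Over all tested targets the medians were 0.21 and 0.12. The neighbours' median was below 0 in Zhongshuang 9 for 6 of these members. The condition of the choice keeps both directions in any subset of libraries. Without the 5 libraries the members' median changes were 0.84 and -0.81, and 36 of 60 stayed at or above the value at the edge of the choice. Leaving out Zhongshuang 9 submergence replicate 1 alone left 45 at or above it.

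Members came from both subgenomes, 28 (46.7%) from A and 32 (53.3%) from C, against 47.2% and 52.5% of all tested targets. Chromosome C03 held 9 members (15% against 7.74% of tested targets) and A10 held 8 (13.3% against 3.5%). Of the 436 targets that met the condition, 12.4% were on C03 and 7.57% on A10. No member lay on A08, C08 or C09. On C08, with 4.93% of the tested targets, lay 0.459% of the 436 and 10 of the 60 targets with the largest reverse pattern. Long stretches of C08 were lowered in Avatar submergence replicate 1 and in Zhongshuang 9 air replicate 4, and stretches of C03 in Avatar air replicates 3 and 4. Of the C03 members, BnaC03g10190D and BnaC03g07710D lay inside a stretch and the others did not. On A10 no stretch was marked. The part of these libraries in the chromosome counts was not tested.

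On A10, 3 members followed each other closely. BnaA10g16790D stood at 3.85, 1.38 and 4.701 TPM in Avatar air, 12.1, 7.98 and 16.1 in submerged Avatar, 5.72, 5.25 and 4.81 in Zhongshuang 9 air, and 1.11, 3.58 and 2.98 in submerged Zhongshuang 9. BnaA10g16840D, a few genes further, had 3.67, 0 and 4.11 TPM in Avatar air, 10.1, 10.46 and 13.8 in submerged Avatar, 5.11, 12.97 and 6.16 in Zhongshuang 9 air, and 2.33, 4.69 and 4.59 in submerged Zhongshuang 9. BnaA10g16830D, given above, lies beside it. Between them, BnaA10g16800D also met the condition, at rank 119, and BnaA10g16820D had changes of 1.88 and -0.55 but overlapped in Zhongshuang 9. BnaA10g16810D, also between them, had too few counts to be tested, and its changes were -0.89 and -1.12. Just before the group, BnaA10g16780D had changes of 1.09 and -0.15, and just after it BnaA10g16850D had -0.55 and -0.64. The 3 members code for 279, 282 and 294 bases. Counts were whole numbers in 5, 9 and 5 of their 12 libraries, and where they are not whole, reads were divided with similar targets and the values are uncertain. A further member, BnaA10g17120D, lies somewhat beyond them and had whole counts in all 12 libraries.

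On C04, the members BnaC04g18270D and BnaC04g18290D were separated by BnaC04g18280D, which had too few counts to be tested. BnaC04g18260D, on their other side, had changes of 1.41 in Avatar and 1.08 in Zhongshuang 9. BnaC04g18310D had 0.60 and -0.17. Neither gene met the condition of the choice. In all, 5 of the 60 members had another member within 100 gene numbers, and none of the 60 targets of the reverse pattern did. Among all targets that met each condition the counts were 56 of 436 and 4 of 168.

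**Figure D5:**
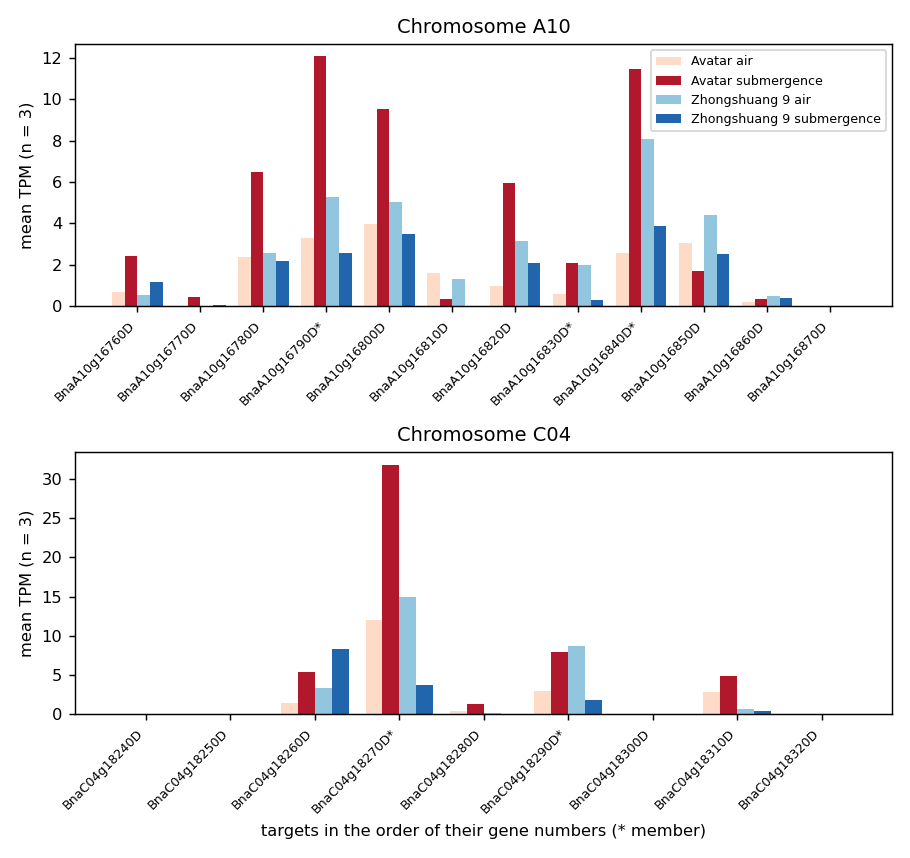
Bars give the mean TPM (n = 3) of each group for neighbouring targets of A10 (top) and C04 (bottom), in the order of their gene numbers, with members marked by an asterisk. On A10 the submerged Avatar bar is the tallest for BnaA10g16790D, BnaA10g16830D and BnaA10g16840D, and on C04 the untested BnaC04g18280D between the members reaches 1.35 TPM at most.

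Members tended to be short. Their coding length had a median of 566 bases, from 168 to 2910, and 31 (51.7%) were under 600 bases. Over all tested targets the median was 1044 bases, and 23.4% were under 600. The 60 targets of the reverse pattern had a median of 624. A short target collects fewer reads at a given TPM, so its TPM has more counting error. Every count was a whole number, within 0.001, in 13 members (21.7%), against 13.9% of tested targets. The other members had a count that was not whole in at least 1 library, as arises where reads are divided between similar targets.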

How the data were processed

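Leaf RNA was sequenced on an Illumina instrument, per the labels' protocols. The authors' deposited files, 1 per library, give estimated counts and TPM per coding sequence. kallisto, edgeR and limma are named in the submitters' processing notes, without versions. For the genome build and annotation, the labels and headers give no name.

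Members were found from TPM by the condition stated above, with a pseudocount of 1. The members and lists were chosen with earlier results of these data known. Estimated counts were rounded to whole numbers and fitted with edgeR 4.0.16 in R 4.3.3 (TMM factors, filterByExpr, 4 group means over all 12 libraries, quasi-likelihood test, Benjamini-Hochberg adjustment over 55674 targets). A fitted log2 fold change is on the scale of TMM-scaled counts. Its SE was derived as the absolute log2 fold change divided by the square root of the F statistic. The SE is thus no measure separate from the test. DESeq2 1.42.0 and limma 3.58.1 served as alternatives. Depth was 24389689 to 35873030 counts per library. TMM factors were 0.852 to 0.919 in air and 1.08 to 1.20 in submergence. Changes from air to submergence therefore tend to be lower on scaled counts than in TPM.

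A shifted stretch was a run of at least 2 blocks of about 40 neighbouring targets (mean log2 CPM above 1) whose median lay at least 0.7 (log2) from the median of the other libraries of the cultivar. Named members were the 10 with the largest smaller change, the 5 of the others with the highest mean TPM, the 3 with the smallest p in each direction of the cultivar average, and members close on a chromosome. BnaA03g48500D, BnaC03g47350D and the other stretch members were named after their values were seen. Marker lists for leaf cell types could not be evaluated, because the identifiers are not paired with gene names in the tables used.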

Additional observations from a re-analysis of the deposited data

Results flagged for a closer look

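The response to submergence differed between the cultivars in 26 of the 59 tested members by the edgeR interaction test (adjusted p under 0.05), with a median log2 difference of -2.70, Zhongshuang 9 minus Avatar. Over all tested targets the median was -0.09, and 0.808% passed with a lower response in Zhongshuang 9. It was flagged because the response differed between the 2 cultivars, which the choice itself required. The members were chosen for this difference in the same libraries, so the count is no independent evidence for it.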

How the results depend on the processing

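Which targets made up the 60 depended on the settings. Of the 60, 33 were kept with a pseudocount of 0.1, 23 with log2(CPM + 1) and TMM factors, and 18 without the 5 libraries with shifted stretches. Without replicate 1, 3 or 4 of every group 13, 24 and 32 were kept. Leaving out single libraries kept 16 (without Avatar air replicate 1) to 53. Among targets outside the stretches, a setting chosen after seeing the data, 53 were kept. Targets meeting the condition went from 436 to 174 with at least 5 TPM in the highest group, 549 to 755 without single libraries, 1808, 1401 and 1710 without replicate 1, 3 or 4, and 3106 without the 5 libraries. Fewer libraries make non-overlap easier to meet.

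The interaction was called in 694 targets with edgeR, 2934 by DESeq2, 2034 by limma at a pseudocount of 1 and 1056 at 0.1, and 425 without a filter on low counts. Single libraries left out gave 109 (without Zhongshuang 9 air replicate 3) to 887. Among members it was called in 26, in 41 by DESeq2, 42 by limma at a pseudocount of 1, and 8 to 30 without single libraries. The cause was not tested.

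The cultivar average was called in 33 members, and in 25 to 36 without single libraries. Over all targets it was called in 17560, and in 14745 to 19867. All 20 alternatives stayed within 1.5 times for both counts, and no cultivar difference of a named member reversed. No submergence change of a named member reversed either, but the choice excludes this when libraries are left out or the pseudocount changes.

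Same-numbered libraries correlated at -0.154 to 0.115 in their deviations from the group means, and differently numbered ones at -0.145 to 0.1715. The labels do not say what the numbers stand for, so these values cannot settle whether the samples are paired. With the replicate block the interaction was called in 300 targets and 17 members, and the cultivar average in 16640 targets and 30 members.

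Depth limits the low members: the lowest had a median of 3.87 counts per library.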
